A study of Mus musculus with 8 samples.

Results

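The genes described here encode the enzymes that build and break down glycogen, together with 1 scaffold protein of the pathway, in mouse embryonic fibroblasts. The members were chosen by name: Gyg, Gys1, Gbe1, Ugp2, Pgm1, Pgm2, Ppp1r3c, Pygl, Pygb and Pygm. They are 10 of 18193 genes named on the arrays, read by 18 of the 45037 probe sets that are not controls. Every probe set that the platform annotation gave to a member was kept. The mouse symbols Pgm1 and Pgm2 have been exchanged in the past, so these genes were followed by Entrez identifier, 72157 for Pgm1 and 66681 for Pgm2. The fibroblasts came from E14.5 embryos of the C57BL6/J strain, and 5 ug of total RNA per sample was labelled for a 1-colour array. The wild-type cells were Hif-p4h-1+/+ and the knockout cells Hif-p4h-1-/-, and each genotype was kept in normoxia and in hypoxia. Hif-p4h-1, the product of Egln2, is an oxygen-dependent prolyl hydroxylase, one of the enzymes that tag HIF alpha proteins for destruction. HIF is the hypoxia-inducible transcription factor. Not stated here are the oxygen level, the time in hypoxia, the number of embryos per sample and the exons removed by the deletion. The 4 groups had 2 arrays each, 1 from a first and 1 from a second set.

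Glycogen is a branched store of glucose. Glucose 6-phosphate is turned into glucose 1-phosphate by phosphoglucomutase and then into UDP-glucose, from which glycogenin starts a chain, glycogen synthase lengthens it and the branching enzyme adds branches. Glycogen phosphorylase releases glucose 1-phosphate again, and a targeting subunit of protein phosphatase 1 switches the balance towards synthesis. HIF is known to raise several of these genes in cultured cells, and glycogen gathers in many cell types at low oxygen.

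The levels are log2 values from RMA, so each unit is a doubling of signal, and the medians of the 8 arrays lay between 5.01 and 5.12. Levels of different probe sets cannot be set against each other, and only differences between samples for the same probe set are compared. A change was called where the adjusted p was under 0.05 in a limma fit over 33787 probe sets with the set as a term. The labels do not say whether both arrays of a group stem from separate cultures, so the p-values cover only array-to-array spread, and this may be technical.

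The starts of the genes are shown first, because the members that moved with hypoxia can be set beside the letters around their start sites. Each window runs from 250 bases before to 50 bases after the start in RefSeq's GRCm38.p6 annotation, 5′ to 3′ on the strand of the gene. All 10 members had a window, and Ugp2 had 2. Capitals mark the letters ACGTG and GCGTG on either strand, which form the core that HIF binds, and the palindrome CACGTG holds ACGTG once on each strand. The windows shown are those of the members whose levels moved with hypoxia and, for contrast, that of Pgm2, which did not pass.
Pygl, chr12:70227634-70227933, minus strand: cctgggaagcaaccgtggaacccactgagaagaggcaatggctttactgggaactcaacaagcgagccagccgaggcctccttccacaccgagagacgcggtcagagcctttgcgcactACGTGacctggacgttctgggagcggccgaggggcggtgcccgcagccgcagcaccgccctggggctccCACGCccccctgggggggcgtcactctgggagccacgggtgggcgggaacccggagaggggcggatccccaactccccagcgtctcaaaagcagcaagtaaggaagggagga
Pgm1, chr4:99929201-99929500, plus strand: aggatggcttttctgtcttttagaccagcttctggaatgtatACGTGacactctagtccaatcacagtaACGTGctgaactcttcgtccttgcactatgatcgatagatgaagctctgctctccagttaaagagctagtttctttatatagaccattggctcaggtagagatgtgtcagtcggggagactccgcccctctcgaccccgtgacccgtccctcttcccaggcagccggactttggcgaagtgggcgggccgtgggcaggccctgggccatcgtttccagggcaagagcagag
Ppp1r3c, chr19:36736555-36736854, minus strand: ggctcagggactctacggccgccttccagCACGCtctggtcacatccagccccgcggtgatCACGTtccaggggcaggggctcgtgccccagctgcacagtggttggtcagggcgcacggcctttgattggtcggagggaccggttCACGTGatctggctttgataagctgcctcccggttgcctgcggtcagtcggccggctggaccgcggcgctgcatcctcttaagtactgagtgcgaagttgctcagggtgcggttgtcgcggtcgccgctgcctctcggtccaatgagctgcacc
Gys1, chr7:45434589-45434888, plus strand: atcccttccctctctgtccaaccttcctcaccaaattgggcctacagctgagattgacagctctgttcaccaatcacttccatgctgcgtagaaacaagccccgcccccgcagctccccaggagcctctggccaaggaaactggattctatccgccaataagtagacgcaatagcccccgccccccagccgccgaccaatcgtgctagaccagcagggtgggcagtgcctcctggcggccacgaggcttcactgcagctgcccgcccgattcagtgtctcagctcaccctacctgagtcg
Gbe1, chr16:70313699-70313998, plus strand: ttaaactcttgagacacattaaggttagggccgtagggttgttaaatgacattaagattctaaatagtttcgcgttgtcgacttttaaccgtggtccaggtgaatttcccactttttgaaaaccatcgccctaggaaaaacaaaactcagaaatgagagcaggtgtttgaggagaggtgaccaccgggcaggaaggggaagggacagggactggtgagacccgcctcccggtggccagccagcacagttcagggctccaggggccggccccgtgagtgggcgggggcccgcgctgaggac
Gyg, chr3:20155067-20155366, minus strand: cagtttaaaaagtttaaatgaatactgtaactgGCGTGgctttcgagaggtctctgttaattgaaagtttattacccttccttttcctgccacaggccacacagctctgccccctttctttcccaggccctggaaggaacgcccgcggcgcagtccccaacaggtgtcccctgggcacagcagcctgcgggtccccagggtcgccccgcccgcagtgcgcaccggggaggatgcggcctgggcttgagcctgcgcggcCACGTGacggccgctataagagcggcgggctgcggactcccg
Pgm2, chr5:64092689-64092988, plus strand: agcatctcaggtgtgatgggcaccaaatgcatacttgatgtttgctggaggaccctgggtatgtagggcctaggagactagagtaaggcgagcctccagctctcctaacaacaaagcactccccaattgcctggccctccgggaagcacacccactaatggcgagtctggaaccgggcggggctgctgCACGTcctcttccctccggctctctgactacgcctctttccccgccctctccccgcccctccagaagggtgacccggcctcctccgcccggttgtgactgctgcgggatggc

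Matches lay in windows of members that rose, that fell and that did not pass. Pygl and Pgm1 held 2 matches each and Ppp1r3c 4, while Gys1 and Gbe1, whose levels also rose, held 0. Gyg, whose level fell, held 3, and Pgm2 held 1. Pygb and Pygm held 2 each, and the windows of Ugp2 held 6 and 0. Of the 32851 windows of this length in the table, 43.8% held at least 1 match, with 19.6% for ACGTG and 32.4% for GCGTG. A match in these letters is a description and not a binding site, and HIF can bind outside these windows.

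In wild-type cells under hypoxia, Pygl, Pgm1, Gbe1 and Gys1 rose, Gyg fell, and Ugp2, Pgm2, Pygb and Ppp1r3c did not pass. Pygl rose by 2.71 ± 0.29 as a log2 change (standard error, 2 arrays in each group), Pgm1 by 1.84 ± 0.083, Gbe1 by 1.30 ± 0.13 and Gys1 by 1.03 ± 0.099, and Gyg fell by 0.51 ± 0.098. For each gene the brightest probe set, by its mean on the 8 arrays, was counted, and Pygm lay below the filter on low values, which left 9 of 10 genes for the test. Of these 9, 4 rose, 1 fell and 4 did not pass, where 11.1% of all probe sets tested were called in wild type, 5.7% higher and 5.39% lower. In the knockout 5 rose, 1 fell and 3 did not pass, where 6.87% of all were called. The median change of the 9 was 0.73 in wild type and 0.77 in the knockout, against -0.02 and 0.015 over all probe sets tested. Over both genotypes 5 rose, 1 fell and 3 did not pass, where 22.6% of all were called. These shares cover all probe sets, dimmer ones included, and are not like for like with counts of 1 probe set per gene. A fit with 1 probe set per gene called 2237 genes in wild type, 1380 in the knockout and 3922 over both. The share by gene was higher in each. Fewer cells of a type and less RNA per cell cannot be told apart in such bulk samples.

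**Figure D1:**
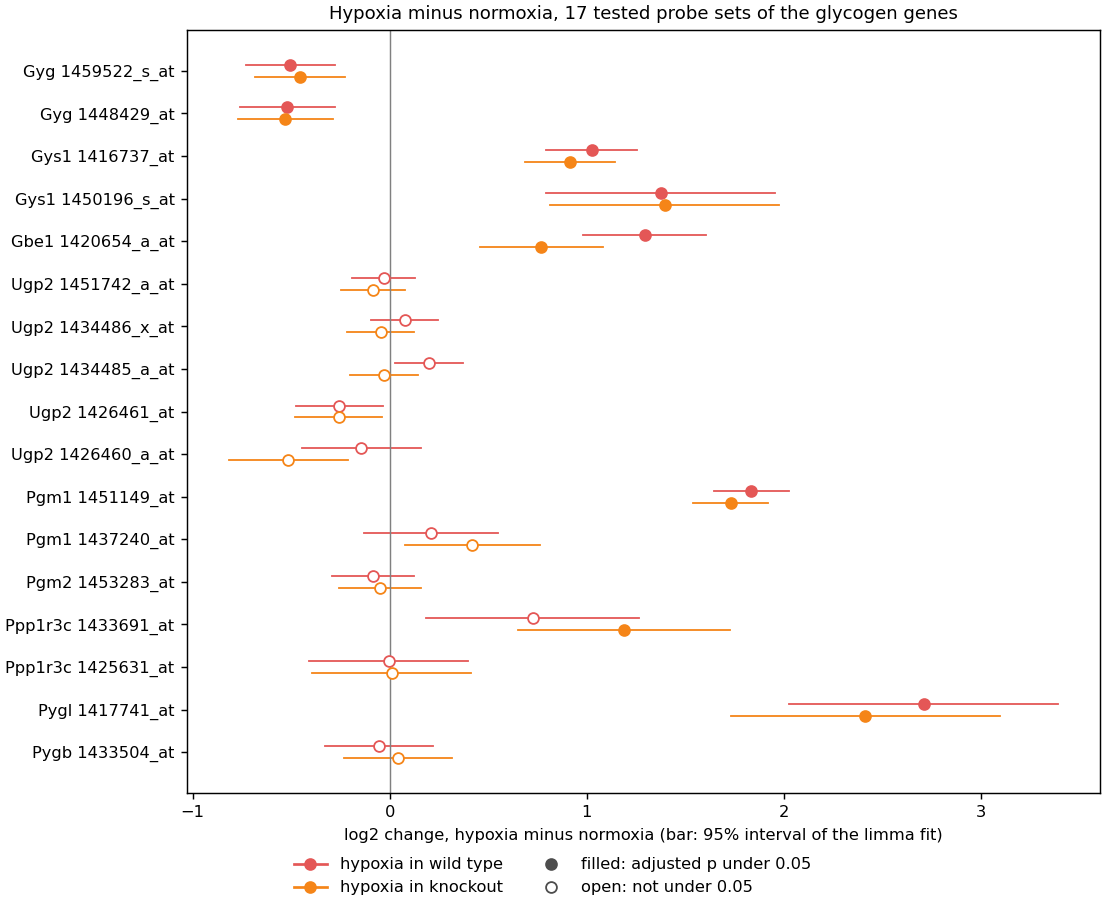
Log2 change from normoxia to hypoxia (x axis) of the 17 tested probe sets of the glycogen genes (y axis), in wild type (red) and knockout (orange), with bars for the 95% interval of the limma fit and filled points for an adjusted p under 0.05. Pygl lies farthest to the right at 2.71 and 2.42, both probe sets of Gyg lie left of 0, and the wild-type and knockout points of Pgm1 and Gys1 lie close together.

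Pgm1 encodes the phosphoglucomutase that interconverts glucose 6-phosphate and glucose 1-phosphate, the entry and exit step of glycogen metabolism. In wild type its leading probe set, 1451149_at, gave log2 levels of 8.43 and 8.74 under normoxia and 10.17 and 10.67 under hypoxia, first set before second here and throughout. The knockout gave 8.64 and 8.98, then 10.34 and 10.74. All 4 hypoxic arrays were thus above all 4 normoxic ones, by 1.70 to 1.93 within each pair of a set. The rise was 3.57-fold in wild type and 3.32-fold in the knockout (adjusted p = 5.7e-05 and 0.000149). Leaving out any 1 of the 8 arrays kept both calls. The further probe set, 1437240_at, lay between 3.55 and 4.30, near the filter at 3.60, and changed by 0.21 ± 0.15 and 0.42 ± 0.15, neither of which passed (adjusted p = 0.427 and 0.135).

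Pgm2, a relative of Pgm1 that acts mainly on pentose phosphates, did not pass. Its values over the 8 arrays lay between 8.69 and 8.99, and hypoxia changed them by -0.085 in wild type (95% interval -0.29 to 0.12) and by -0.05 in the knockout (-0.26 to 0.16). Ugp2, which makes UDP-glucose, was read by 5 probe sets and none passed in either genotype. Its leading probe set, 1451742_a_at, lay between 10.76 and 11.0 on all arrays and changed by -0.03 (-0.19 to 0.13) in wild type and by -0.085 (-0.25 to 0.075) in the knockout. Its probe sets did not move alike. Over both genotypes 1426460_a_at and 1426461_at fell by 0.33 and 0.26 (adjusted p = 0.0381 and 0.0296), while the other 3 gave -0.0575, 0.015 and 0.085 and did not pass. The call of 1426460_a_at was lost in 6 of the 8 fits without 1 array, with values from -0.42 to -0.24 over the 8, and that of 1426461_at in 7, with values from -0.30 to -0.22. In the knockout 1426460_a_at gave -0.52 ± 0.13 and did not pass (adjusted p = 0.058), and it passed with a filter at the 50th percentile (adjusted p = 0.0414) and after quantile normalization (adjusted p = 0.0486).

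**Figure D2:**
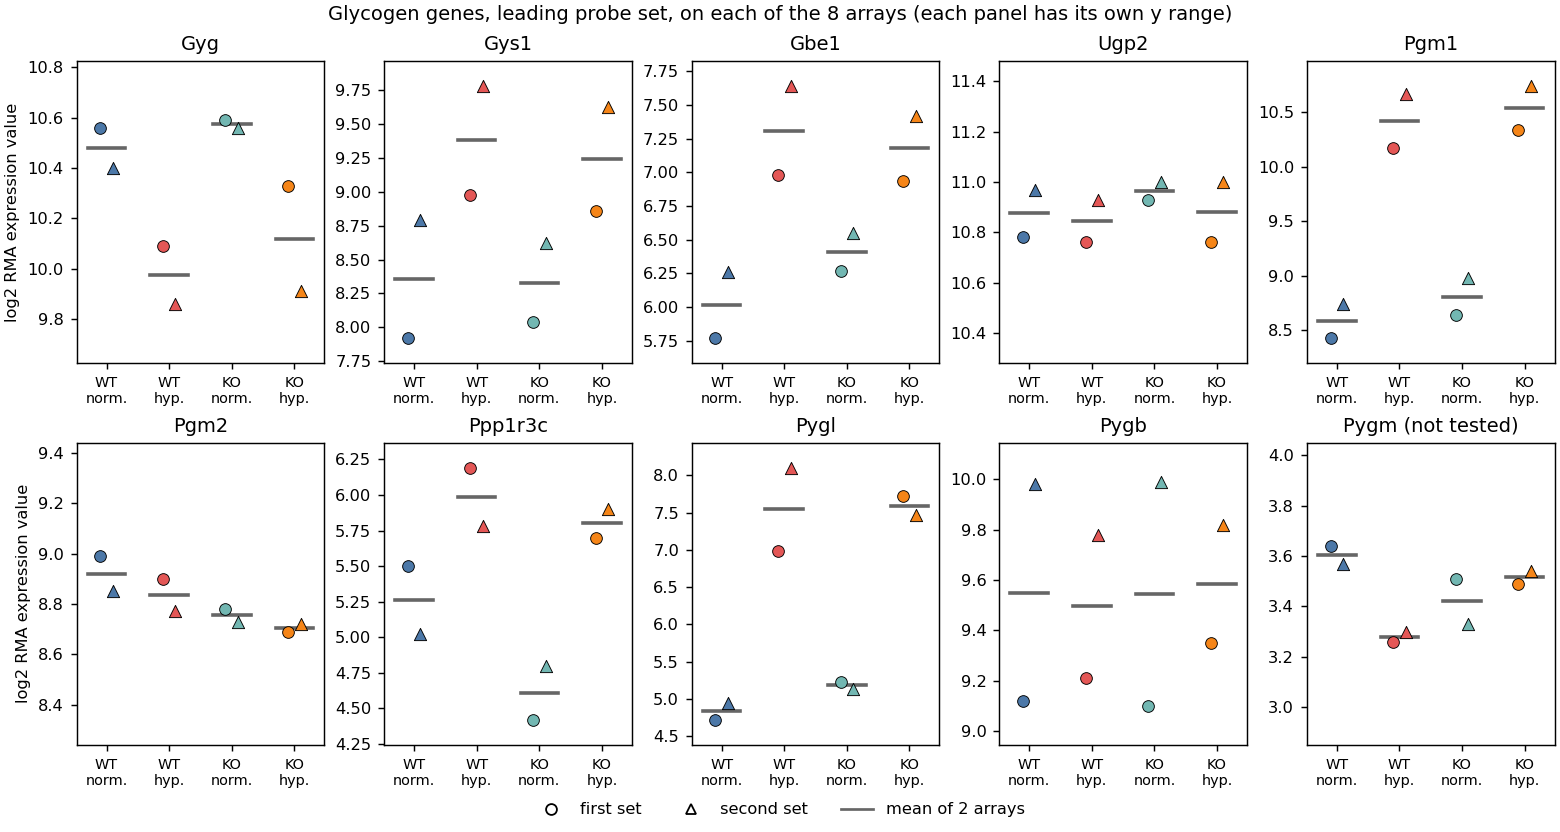
Log2 RMA value (y axis, a separate range in each panel) of the leading probe set of each of the 10 glycogen genes on the 8 arrays, by genotype and oxygen condition (x axis), with circles for the first set, triangles for the second and a bar for the mean of 2 arrays. Pgm1, Gys1, Gbe1, Pygl and Ppp1r3c have all 4 hypoxic arrays above all 4 normoxic arrays, Gyg has them all below, and in Pygb the sets lie farther apart than the oxygen conditions.

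Gyg encodes glycogenin, the protein that primes a new glycogen particle with its first glucose units, and it fell. Wild-type levels of probe set 1459522_s_at were 10.56 and 10.40 under normoxia against 10.09 and 9.86 under hypoxia. Knockout levels were 10.59 and 10.56 against 10.33 and 9.91. The lowest normoxic array was above the highest hypoxic one, and the second probe set, 1448429_at, separated them as well. The falls were 0.51 ± 0.098 in wild type and 0.46 ± 0.098 in the knockout (adjusted p = 0.0186 and 0.0355). By 1448429_at they were 0.52 ± 0.10 and 0.53 ± 0.10 (adjusted p = 0.0211 and 0.0274). The calls were not firm within a genotype. In wild type both probe sets lost theirs in each fit without 1 of the 4 wild-type arrays, at -0.54 to -0.47 and -0.63 to -0.41. In the knockout both lost theirs without any 1 of the 4 knockout arrays, at -0.60 to -0.32 and -0.66 to -0.40, and 1459522_s_at also without either normoxic wild-type array. Over both genotypes the falls of 0.48 ± 0.069 and 0.53 ± 0.074 (adjusted p = 0.00303 and 0.00275) were kept in all 8 fits without 1 array. Both calls were lost in the limma fit without the set as a term (adjusted p = 0.159 and 0.0966). They were also lost without both first-set wild-type arrays, where the changes were -0.50 and -0.58.

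Gys1 encodes the glycogen synthase of muscle and most other tissues, the enzyme that lengthens the chains. Probe set 1416737_at stood at 7.92 and 8.79 in the normoxic wild type and moved to 8.98 and 9.78 under hypoxia. The knockout moved from 8.04 and 8.62 to 8.86 and 9.63. Hypoxic arrays were above all normoxic ones, and the second set was above the first in every group. The rise was 2.03-fold in wild type and 1.89-fold in the knockout (adjusted p = 0.00208 and 0.0049), and the knockout call was lost without knockout hypoxia replicate 2, where the change was 0.91 on the log2 scale (adjusted p = 0.0674). The second probe set, 1450196_s_at, also rose in both genotypes, by 1.38 ± 0.25 and 1.40 ± 0.25 (adjusted p = 0.0153 and 0.0217). The first set gave rises of 0.94 in wild type and 0.99 in the knockout, and the second set 1.81 and 1.80. Its knockout call was lost without any 1 of the 4 knockout arrays, at 1.11 to 1.68. Its wild-type call was lost without either normoxic wild-type array or wild-type hypoxia replicate 2, at 1.07 to 1.68.

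Gbe1 encodes the branching enzyme, whose branches give glycogen its compact, soluble form. Its single probe set went from 5.77 and 6.26 under normoxia to 6.98 and 7.64 under hypoxia in wild type, and from 6.27 and 6.55 to 6.94 and 7.42 in the knockout. Every hypoxic array was again above every normoxic one, and the 2 normoxic knockout arrays were each above the wild-type array of their set. The rise was 2.45-fold in wild type and 1.71-fold in the knockout (adjusted p = 0.00269 and 0.0203). The wild-type call was kept in all 8 fits without 1 array, and the knockout call was lost without any 1 of the 4 knockout arrays, at 0.64 to 0.90 on the log2 scale.

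Ppp1r3c encodes the scaffold protein PTG, which brings protein phosphatase 1 to glycogen, where the phosphatase activates glycogen synthase and inactivates phosphorylase. Normoxic wild-type cells gave 5.50 and 5.02 by probe set 1433691_at, and hypoxic ones 6.19 and 5.78. For the knockout the levels were 4.42 and 4.80 under normoxia, then 5.70 and 5.90. Hypoxic arrays lay above all normoxic ones, although the highest normoxic array, at 5.50, came close to the lowest hypoxic one, at 5.70. Ppp1r3c rose in the knockout by 1.19 ± 0.23 (2.28-fold, adjusted p = 0.0271), a call lost without knockout normoxia replicate 1 (0.89) or either hypoxic knockout array (1.38 and 1.01). The change of 0.73 ± 0.23 in wild type did not pass (adjusted p = 0.0902), and the rise over both genotypes of 0.96 ± 0.16 passed (adjusted p = 0.00601). The further probe set, 1425631_at, lay between 3.75 and 4.18 and changed by -0.005 and 0.01 (95% intervals -0.41 to 0.40 and -0.39 to 0.41).

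Among the glycogen phosphorylases, Pygl is the form known from liver, Pygb that known from brain and Pygm that of muscle. Pygl levels were 4.72 and 4.95 in wild type under normoxia and 6.99 and 8.10 under hypoxia. Knockout levels were 5.23 and 5.13, then 7.72 and 7.47. The highest normoxic array, at 5.23, lay far below the lowest hypoxic one, at 6.99. This was the largest rise of the 17 tested probe sets, 6.54-fold in wild type and 5.33-fold in the knockout (adjusted p = 0.00304 and 0.00712). The wild-type log2 rise was 2.27 by the first set and 3.15 by the second, and the call was kept in all 8 fits without 1 array. In the knockout it was 2.49 and 2.34, and the call was lost without knockout hypoxia replicate 2, at 2.75 (adjusted p = 0.0528).

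Pygb did not pass in either genotype. Wild-type levels were 9.12 and 9.98 under normoxia and 9.21 and 9.78 under hypoxia, and the knockout gave 9.10, 9.99, 9.35 and 9.82 in the same order. Its sets were farther apart than its oxygen conditions. The change was -0.055 in wild type (95% interval -0.33 to 0.22) and 0.04 in the knockout (-0.23 to 0.31). Pygm lay between 3.26 and 3.64, at the 21.5 percentile of all probe sets by mean, and was not tested. The wild type gave 3.64 and 3.57 under normoxia and 3.26 and 3.30 under hypoxia, and the knockout 3.51, 3.33, 3.49 and 3.54.

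Counted by probe set, 6 of the 18 had all 4 hypoxic arrays above all 4 normoxic ones, which 5.57% of all probe sets did, and 2 had them all below, as did 5.59% of all. The 6 were those of Pygl, Gbe1, both of Gys1 and the leading ones of Pgm1 and Ppp1r3c, and the 2 were those of Gyg. The 5 genes whose leading probe sets followed that of Pygl most closely over the 8 arrays, out of 15277 genes, were Dusp3, Tmem45a, Fosl1, Fcor and Pgam1, with Pearson's r from 0.985 to 0.996. They share the arrays and the large step between oxygen conditions, so this is a description. Tmem45a rose by 2.24 in wild type and 2.06 in the knockout, and Pgam1, a phosphoglycerate mutase of glycolysis, by 0.90 and 0.72.

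Several checks of the samples moved beside these results. The excess of 3′ over 5′ control signal, a sign of RNA quality, was higher in hypoxia in all 4 pairs of arrays, by 0.10 to 0.17 for Actb and by 0.04 to 0.33 for Gapdh, and its part in the hypoxia changes was not tested. All 9 fibroblast markers were above the filter, and by leading probe set limma called 0 of them with oxygen in either genotype (1 and 0 had an unadjusted p under 0.05). Of 6 macrophage markers 1, Lyz2, fell with hypoxia in wild type, by 0.50 ± 0.10 (adjusted p = 0.022), and 0 passed in the knockout, with median changes of -0.36 and -0.22. Over both genotypes Lyz2 fell by 0.36 and Cd14 rose by 0.43. These markers too were high on the first-set wild-type arrays, with Ptprc at 6.82 and 6.33 and Adgre1 at 6.34 and 6.81, against at most 5.28 and 4.97 on the other 6, and their part in the hypoxia changes was not tested. Of 8 skeletal muscle markers, Myog and Myh3 stood far apart on the first-set wild-type arrays, at 8.04 and 7.96 for Myog and 8.53 and 8.35 for Myh3, against 3.48 to 4.33 and 3.58 to 4.00 on the other 6 arrays. Myod1 was also highest there, by less, at 4.98 and 4.57 against 3.33 to 4.07 on the other 6. Myf5, which lay below the filter, gave 2.95 and 4.06 there against 2.40 to 2.71. Not all markers did so: Acta1 gave 9.65 and 9.21 there against 10.90 to 11.54 in the second set, and Ckm 5.09 and 5.33, Des 7.07 and 7.28 and Pax7 3.72 and 3.92, near their levels elsewhere. The 8 summed muscle markers ranged from 41.42 to 50.03 in normoxic and 41.13 to 50.68 in hypoxic wild type, and from 37.69 to 41.60 and 39.51 to 42.15 in the knockout. Pygm, itself a muscle gene, gave 3.64 and 3.26 on those 2 first-set arrays. Without these 2 arrays, a fit with 1 residual degree of freedom called 0 members and 0 probe sets in all for wild type (6 members and 5527 probe sets had an unadjusted p under 0.05), 2 members in the knockout and 5 over both genotypes. That fit takes the wild-type changes of the second set alone, 3.15 for Pygl, 1.93 for Pgm1, 1.38 for Gbe1, 0.99 for Gys1 and -0.54 for Gyg.

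The number of members called rested on the set being part of the fit. Without it, limma called 0 members in either genotype (5 in wild type and 5 in the knockout had an unadjusted p under 0.05) and 2 over both, Pygl and Pgm1, with the same changes. With the set as a random block it called 4 in wild type, 2 in the knockout and 6 over both. In the knockout the count of 6 fell to 3 without normoxia replicate 1, to 3 without hypoxia replicate 1 and to 1 without hypoxia replicate 2.

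The genotype comparison asked whether loss of Hif-p4h-1 alone moved glycogen genes. No member passed. In normoxia 0 of 9 genes were called in the limma fit, where 0.00592% of all probe sets were, and 3 had an unadjusted p under 0.05, against 4.87% of all probe sets. In hypoxia 0 of 9 were called, as were 0% of all, and 0 had an unadjusted p under 0.05, against 4.48% of all. Over both conditions 0 of 9 were called, where 0.0444% of all were, and 2 had an unadjusted p under 0.05, against 7.05% of all. Egln2, the targeted gene, differed by -0.79 in normoxia and -0.29 in hypoxia in this fit and did not pass (adjusted p = 0.147 and 0.989). Both differences had an unadjusted p under 0.05. With hypoxia Egln2 rose by 0.585 in the knockout (adjusted p = 0.014 by limma), and its change of 0.085 in wild type did not pass. The gap of 0.50 between these 2 changes had an unadjusted p under 0.05 and did not pass. It still gave signal in the knockout, at 8.0 and 8.34 in normoxia and 8.66 and 8.85 in hypoxia. Whether its probe set lies in the deleted part is unknown here, so it may check nothing.

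The 3 genes with an unadjusted p under 0.05 in normoxia were Ppp1r3c, Gbe1 and Pgm1. Ppp1r3c differed by -0.65 (95% interval -1.19 to -0.11), and the sets gave -1.08 and -0.22. Gbe1 differed by 0.40 (0.082 to 0.71), with 0.50 and 0.29, and Pgm1 by 0.23 (0.034 to 0.42), with 0.21 and 0.24. Their adjusted p was 0.948 each in the limma fit. In hypoxia the differences of these genes were -0.19 (-0.72 to 0.35), -0.13 (-0.44 to 0.18) and 0.12 (-0.071 to 0.31). For Pygl the difference was 0.35 (-0.34 to 1.03) in normoxia and 0.05 (-0.63 to 0.73) in hypoxia, where the sets gave 0.73 and -0.63. The intervals of Pygl are thus wide, and a missed threshold does not show equal levels.

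**Figure D3:**
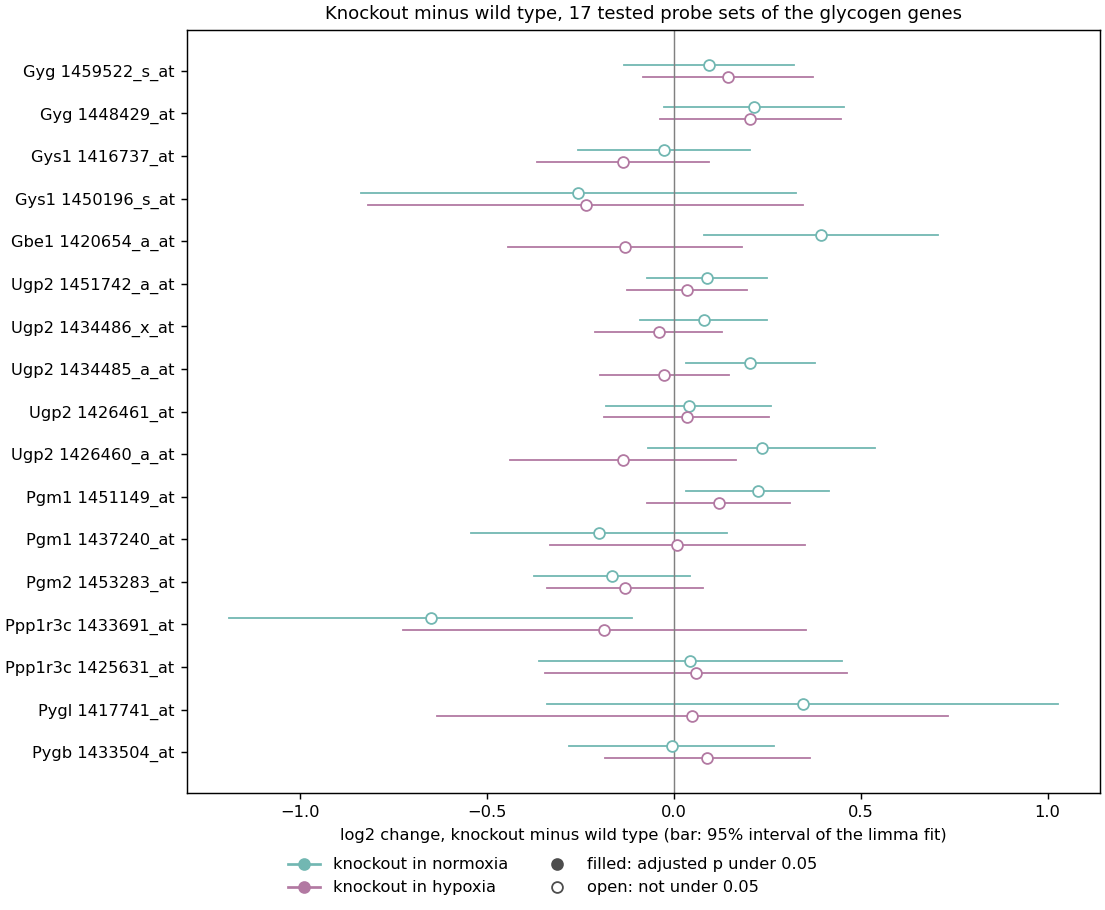
Log2 difference between knockout and wild type (x axis) of the 17 tested probe sets of the glycogen genes (y axis), in normoxia (teal) and in hypoxia (purple), with bars for the 95% interval of the limma fit. All points are open, since none had an adjusted p under 0.05, and the widest bars are those of Pygl.

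Of 6 macrophage markers 1 was called lower in the knockout in normoxia, 0 in hypoxia and 2 over both conditions, where 0.00592%, 0% and 0.0444% of all probe sets were called. In the limma fit 5, 4 and 6 of these markers had an unadjusted p under 0.05, against 4.87%, 4.48% and 7.05% of all. Their 6 summed levels ranged from 39.03 to 47.86 in normoxic and 38.30 to 46.01 in hypoxic wild type, and from 34.96 to 38.14 and 34.23 to 38.01 in the knockout. Lyz2, a macrophage lysozyme, changed by -1.33 ± 0.10 in the normoxic knockout (adjusted p = 0.0225). Whether such cells contributed to the genotype differences of the glycogen genes was not tested. The 5 hepatocyte markers measured, of 6 listed, summed to between 24.06 and 27.31 on all arrays. Among 9 fibroblast markers limma called 0 in normoxia, 0 in hypoxia and 1, which was lower, over both conditions, and 3, 4 and 4 had an unadjusted p under 0.05. Among 7 tested muscle markers it called 0 in each, and 1, 0 and 3 had an unadjusted p under 0.05. The part of these markers in the genotype differences was not tested.

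The interaction, the amount by which the knockout's response to hypoxia exceeds the wild type's, was called for 0 of 9 genes by limma, where 0% of all probe sets were called. Gbe1 alone of the 9 had an unadjusted p under 0.05 for it, where 2.45% of all probe sets did. Its interaction was -0.53 (95% interval -0.97 to -0.083, adjusted p = 0.999), and the sets gave -0.54 and -0.51. For Ppp1r3c it was 0.47 (-0.30 to 1.23), for Pygl -0.30 (-1.26 to 0.67), for Gys1 -0.11 (-0.43 to 0.21) and for Pgm1 -0.11 (-0.38 to 0.17). A call in the knockout and not in wild type, as for Ppp1r3c, therefore does not show that the genotypes differ.

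The sets differed widely, and many glycogen genes moved with them. Of the 9 genes 5 were higher in the second set and 1 was lower, where 36.7% of all probe sets were called. The fit with 1 probe set per gene called 6293 genes, a higher share. Gys1 was higher by 0.76 ± 0.070, Pygb by 0.70 ± 0.084, Gbe1 by 0.48 ± 0.095, Pgm1 by 0.39 ± 0.058 and Ugp2 by 0.17 ± 0.049, and Gyg was lower by 0.21 ± 0.069. Their adjusted p were 0.000211, 0.000593, 0.00605, 0.00169, 0.0298 and 0.0466 in the limma fit. The calls of Ugp2 and Gyg were each lost in 6 of the 8 fits without 1 array, at 0.14 to 0.20 and -0.27 to -0.14 over the 8. Pygl, Ppp1r3c and Pgm2 gave 0.25, -0.078 and -0.073 and did not pass. Without the first-set wild-type arrays 3 of the 9 were called. Of 6 macrophage markers 5 were lower in the second set too, with a change of -1.18 ± 0.071 for Lyz2 and -1.28 ± 0.15 for Csf1r. Among 9 fibroblast markers 5 were higher and 1 was lower, and among 3 tested endothelial markers 2 were lower. For 7 tested muscle and 5 tested neural markers 1 each was higher, and 0 of 5 hepatocyte markers passed. The part of any of these markers in the set differences was not tested.

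Other genes of the pathway were taken from lists and counted in the same way, by leading probe set. The shares beside them are again over all probe sets and lower than shares by gene. Of 5 tested genes of glycogen breakdown beside phosphorylase, 0 passed in either genotype by limma and 0 had an unadjusted p under 0.05, with a median change of 0.045 in both. Phka1, a subunit of the kinase that activates phosphorylase, changed by -0.30 ± 0.15 and -0.06 ± 0.15, and Gaa, the lysosomal glucosidase, by 0.17 ± 0.094 and 0.045 ± 0.094. The further probe set of Gaa gave 0.55 ± 0.14 in both genotypes, which passed in wild type and not in the knockout (adjusted p = 0.0496 and 0.0638). Over both genotypes that probe set rose by 0.55 ± 0.10 and passed (adjusted p = 0.00813). Of 5 tested genes that control synthesis or attach to glycogen, 0 passed in either genotype by leading probe set. Among them were the glycogen synthase kinases Gsk3a and Gsk3b. By leading probe set 0 had an unadjusted p under 0.05, with median changes of 0.03 and 0.11. Further probe sets of Gsk3b did not move alike. That with the largest fall over both genotypes, -0.80 ± 0.20, passed there (adjusted p = 0.0257 by limma). It gave -0.59 ± 0.28 in wild type and -1.01 ± 0.28 in the knockout, neither of which passed (adjusted p = 0.239 and 0.0775). The others gave -0.78, 0.105, 0.17 and 0.185 over both genotypes and did not pass. Stbd1, which tethers glycogen to membranes, changed by -0.095 ± 0.17 and -0.32 ± 0.17 and its arrays ranged from 7.74 to 8.31 for the first set and from 9.04 to 9.50 for the second.

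Protein phosphatase 1 and its other targeting subunits formed the next list. Of 8 tested genes of the phosphatase and its subunits 2 rose in wild type, 1 rose in the knockout and 0 fell, beside 11.1% and 6.87% called over all probe sets, with median changes of 0.14 and 0.20. Over both genotypes 3 of these genes rose and 0 fell, where 22.6% of all probe sets were called. Among their further probe sets, 1 of 3 for the catalytic subunit Ppp1cb rose in wild type by 0.58 ± 0.15 and that of Ppp1cc fell by 0.37 ± 0.069 (adjusted p = 0.0455 and 0.0159), and in the knockout they gave 0.45 and -0.27 and did not pass. Ppp1r3b, the subunit best known from liver, gave 6.60 and 7.09 under normoxia and 7.20 and 7.76 under hypoxia in wild type, and 6.31, 7.02, 7.15 and 7.65 in the same order in the knockout. It rose by 0.64 ± 0.12 in wild type and by 0.74 ± 0.12 in the knockout (adjusted p = 0.0162 and 0.0157). Ppp1r3g rose in wild type by 0.72 ± 0.19 (adjusted p = 0.0492), and its change of 0.72 ± 0.19 in the knockout did not pass (adjusted p = 0.0624). Ppp1r3e gave 0.47 ± 0.13 and 0.34 ± 0.13 and did not pass in either, and Ppp1ca, a catalytic subunit, gave 0.17 ± 0.063 and 0.095 ± 0.063.

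Among 9 tested neighbours in sugar phosphate and UDP-sugar metabolism, 3 rose in wild type, 4 rose in the knockout and 0 fell, beside the same 11.1% and 6.87% of all, with median changes of 0.36 and 0.32. Over both genotypes 5 rose and 1 fell, where 22.6% of all were called. The glucose transporter gene Slc2a1 rose by 1.88 ± 0.063 and 1.50 ± 0.063, wild type before knockout. The hexokinases, which make glucose 6-phosphate, rose too, Hk1 by 1.31 ± 0.087 and 1.17 ± 0.087 and Hk2 by 0.86 ± 0.093 and 0.74 ± 0.093. Slc37a4, the glucose 6-phosphate transporter of the endoplasmic reticulum, rose in the knockout by 0.57 ± 0.14 (adjusted p = 0.0476) and gave 0.36 ± 0.14 in wild type (adjusted p = 0.143). Ugdh and Galt, whose enzymes use UDP-sugars, did not pass in either genotype. The liver forms Gys2 and G6pc lay below the filter, as did Phkg1 and Ppp1r3a, and were not tested. No gene of these lists was called for genotype or its interaction with oxygen. Of the 9 neighbours, 1 had an unadjusted p under 0.05 in normoxia, 1 in hypoxia and 1 for the interaction. Over all probe sets 4.87%, 4.48% and 2.45% did. Of the 8 phosphatase genes 0, 0 and 1 did. Further probe sets of Slc2a1 gave interactions of -0.43 and -0.485 (unadjusted p = 0.00178 and 0.00279 by limma, adjusted p = 0.999 each).

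**Figure D4:**
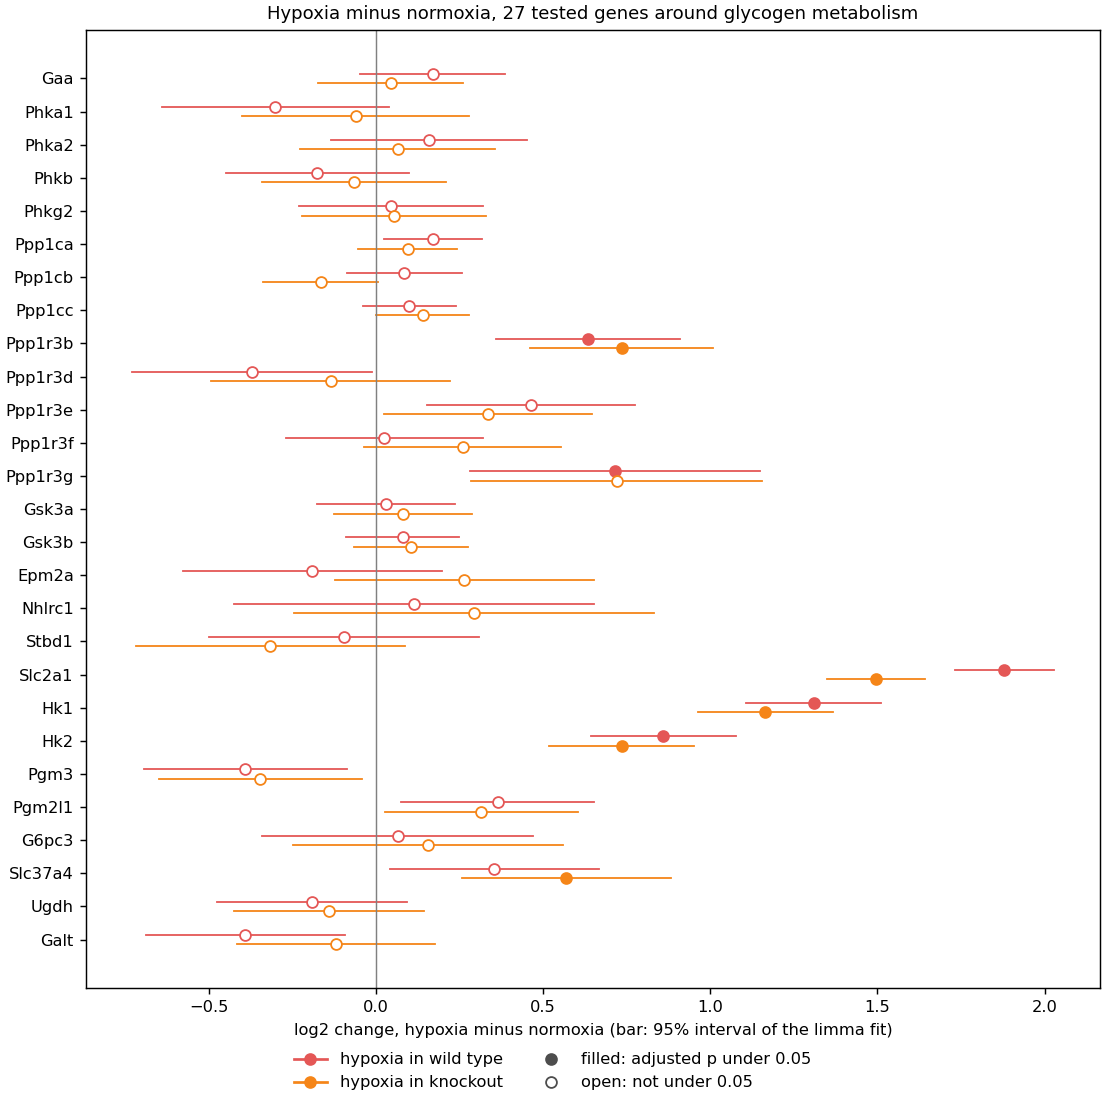
Log2 change from normoxia to hypoxia (x axis) of 27 tested genes around glycogen metabolism (y axis), in wild type (red) and knockout (orange), with bars for the 95% interval of the limma fit and filled points for an adjusted p under 0.05. Slc2a1, Hk1, Hk2 and Ppp1r3b are filled in both genotypes, and Ppp1r3g in wild type and Slc37a4 in the knockout are filled once.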

How the data were processed

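The deposited table holds log2 expression values for 8 arrays, which come from RMA per the submitters' processing notes, with no version. No genome build or software beyond RMA is named, nor whether RMA was run on all arrays at once. Values lay between 2.09 and 14.71 and no further normalization was applied. RMA brings arrays to similar distributions, which can hide a shift common to every transcript, and the number of arrays limits the precision.

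Gene names came from the platform annotation, updated by Entrez identifier through RefSeq (GRCm38.p6). Of 45037 probe sets, 34945 had 1 symbol, 932 several and 9160 were not listed, and 34741 identifiers were found in RefSeq. No probe set with several symbols named a member. The test left out probe sets whose mean fell under the 25th percentile (3.60). R 4.3.3 and limma 3.58.1 fitted a mean per group with the set as a term, followed by eBayes with a trend, with 3 residual degrees of freedom. P-values are two-sided with Benjamini-Hochberg adjustment over all 33787 probe sets. The fit was tested on simulated data.

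The second set is marked in the labels, and its difference from the first correlated across probe sets with r from 0.577 to 0.766 over the 6 pairs of groups, so the set serves as the pairing. Members, lists, tests and alternatives were chosen with earlier results of these data known. The named genes are all members, Egln2, up to 4 genes per pathway list with the smallest adjusted p, and the 5 genes most like the member with the largest rise. The alternatives were other filters, 1 probe set per gene, other treatments of the set, no trend, quantile normalization, fits of 2 groups and leaving out arrays. Genes of the lists absent from the annotation used were not analysed here.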

Additional observations from a re-analysis of the deposited data

Results flagged for a closer look

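In 3 probe sets the knockout lay on opposite sides of the wild type in normoxia and in hypoxia, in both sets. The share of all probe sets that did so was not counted, so these 3 are a description and not a result about the members. For Gbe1 the knockout was higher by 0.50 and 0.29 in normoxia and lower by 0.04 and 0.22 in hypoxia, a difference of -0.53 that did not pass as an interaction (adjusted p = 0.999 in the limma fit). For Ugp2 probe set 1426460_a_at the knockout was higher by 0.39 and 0.08 in normoxia and lower by 0.05 and 0.22 in hypoxia, a difference of -0.37 that did not pass either (adjusted p = 0.999 in the limma fit). For Pygm the knockout was lower by 0.13 and 0.24 in normoxia and higher by 0.23 and 0.24 in hypoxia. That difference of 0.42 was not tested, since the probe set lies below the filter on low values.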

How the results depend on the processing

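Of 2130 values of member probe sets under the alternatives, 0 called values changed sign, and 113 changed sign where neither value passed, from main values of at most 0.295 in size. In the 3 hypoxia comparisons, 47 calls of single probe sets were lost on leaving out 1 array and 69 under other alternatives, and 3 were gained. Of 5 members called in wild type and 6 in the knockout, the fit with no replicate block kept 0 and 0, and 2 of 6 over both genotypes. The set as a random replicate block gave 2 in the knockout, and fits of 2 groups alone gave 2 in wild type and 2 in the knockout, with 1 residual degree of freedom. Without the first-set wild-type arrays, an alternative chosen after seeing the data, 0 were called in wild type, 2 in the knockout and 3 for the sets. Leaving out 1 array gave 1 to 6 members in the knockout. The filters, quantile normalization and 1 probe set per gene left each hypoxia count of members as it was. With no trend, limma called 4 members in wild type, 4 in the knockout and 6 over both. Gyg was lost in both genotypes (adjusted p = 0.0723 and 0.114 by its leading probe set) and Ppp1r3c in the knockout (adjusted p = 0.0667). Over all probe sets, the 3746 calls in wild type ranged from 398 to 2949 without 1 array and from 0 to 4401 otherwise, and the 2320 in the knockout from 76 to 2709 and from 14 to 2814. Arrays of 2 per group limit what small changes can pass.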
